A study of Mus musculus with 12 samples.

Results

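Cornea of mice with dry eye disease (DED) that had received exosomes intravenously was compared with cornea of untreated mice, across all genes. The comparison rests on 6 of the 12 samples of the series, 3 intravenous and 3 control, named here by group and replicate number. A gene was a member if its recovered read count was 10 or more in at least 3 of these 6 libraries, and 14222 genes were. All mice were labelled wild type (WT). The control mice had no treatment, and the intravenous group were mouse models of DED given stem cell-derived exosomes by vein. The other groups of the series, used here only beside these, were the untreated DED model (3 libraries) and DED mice given the exosomes as an eye drop. The labels give no strain, sex, age, dose, time of collection or means of inducing dry eye, and list no animals injected without exosomes. Dry eye, the injection and the exosomes therefore cannot be told apart in a difference between the intravenous and control groups. Whether a library is 1 animal is not stated, so p-values measure the spread between these samples, which may be technical.

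The cornea is covered by a stratified epithelium whose basal cells are anchored to the matrix by hemidesmosomes, divide, and give rise to flattened surface cells that are shed. Dry eye disease is a disorder of the tear film in which this epithelium is exposed to drying and to inflammatory signals, among them cytokines of the interleukin-1 family and interferon-gamma. Exosomes are small membrane vesicles that cells release and that carry proteins and RNA. In whole corneal tissue, fewer cells of a type and less RNA per cell cannot be told apart.

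Total counts were 10893978 to 12972945 in the controls and 8956553 to 9501661 in the intravenous libraries, which were the shallowest of the series. Krt12, a keratin that defines corneal epithelial cells, had 264102, 386844 and 360593 normalized counts in control 1, 2 and 3 and 388099, 477165 and 400241 in intravenous 1, 2 and 3 (log2 fold change 0.34, SE 0.19, adjusted p = 0.21). It overlaps the antisense gene A830036E02Rik, so the counts of both are uncertain. A normalized count is the recovered count divided by the median-of-ratios size factor of its library, and every log2 fold change is a difference of group means of log2(normalized count + 1). Of the variance among the 6 libraries, 53.4% lay on a first principal component with the controls at -69.9, -20.1 and -33 and the intravenous libraries at 52.5, 55.2 and 15.3. Control 1 and intravenous 3 stood apart from their groups: control 1 was the outermost control on it, and intravenous 3 was the intravenous library nearest to the controls and at -62.9 on the second component (23.1%).

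Limma with Benjamini-Hochberg adjustment called 2733 of the 14222 genes (19.2%) at an adjusted p under 0.05, of which 1530 were higher (10.8% of genes tested) and 1203 lower (8.46%) in the intravenous group. Of the calls, 1019 were at least 2-fold, 630 higher and 389 lower, and 56% of all calls were higher. The values of the 3 intravenous libraries lay wholly above those of the 3 controls for 2589 genes (18.2%) and wholly below for 2382 (16.7%). Single libraries moved the count of calls widely. It was 443 without control 1, 1257 without control 3, 1107 without intravenous 1, 1281 without intravenous 2 and 4900 without intravenous 3. In the same direction, 405 genes passed in every one of the 6 fits that each left out 1 control or intravenous library, 270 higher and 135 lower. The choice of scaling moved all genes together: the median log2 fold change was -0.03 as reported, -0.11 with the 75th percentile as the scale, -0.37 with library totals and -0.69 with no scaling. The share of calls that were higher was 44.4%, 13.6% and 3.49% with those 3, so the split between higher and lower depends on the scale. In what follows, a gene is said to have risen or fallen only where its call passed.

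Against the DED model itself, 340 genes (2.39%) were called in the intravenous group, 223 higher and 117 lower. That count was 58 without DED 1, 76 without DED 3, 160 without intravenous 1, 191 and 199 without eye drop 1 and 2, which enter the estimate of the spread, 206 without control 3 and 1799 without intravenous 3, and 47 of the 340 calls held without each of the 3 DED and 3 intravenous libraries. Of the calls against the DED model given or counted below, some held so. They were those of Ly6a, Ifi47, Gbp2, Psmb9, B2m, Ctss, Dbp, Tef, Arntl, Ccnd2, Cyp2a5, Snx31, Las1l, Pigz, Scd1 and Fdps. Each of the others was lost without at least 1 DED library. Between the intravenous and eye drop groups limma called 0 genes (0.0%), with 1595 genes at an unadjusted p under 0.05, and limma voom likewise called 0. Between the DED model and the controls 239 genes (1.68%) were called, 34 without control 1, 75 without control 3, 97 without DED 2, 60 without DED 3 and 1272 without intravenous 3. That comparison uses the same control libraries, so its values are only set beside the intravenous ones below.

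**Figure D1:**
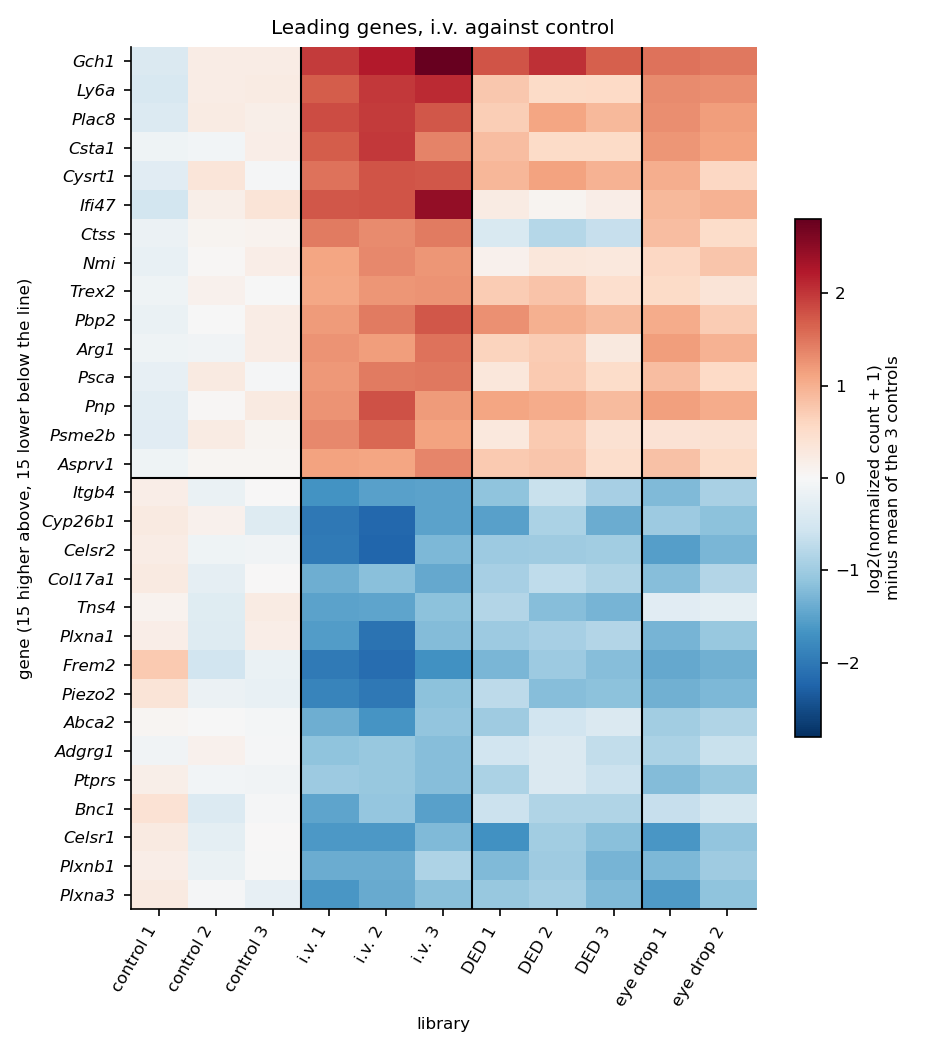
Log2(normalized count + 1) minus the mean of the 3 controls for the 30 leading genes (rows) in 11 libraries (columns). The 3 intravenous libraries are above all controls for each of the 15 upper genes and below all controls for each of the 15 lower genes, and the mean of the DED libraries is between the control and intravenous means for all of them except Ctss.

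The 15 genes that led the rise had the smallest p among those changed at least 2-fold. Gch1, the first enzyme of tetrahydrobiopterin synthesis, had 81.4, 123 and 123 normalized counts in control 1, 2 and 3 and 419.9, 504 and 759 in intravenous 1, 2 and 3 (log2 fold change 2.33, SE 0.23, adjusted p = 0.000744). The groups did not overlap, and the DED libraries, at 364, 444 and 346, were above the controls and overlapped the intravenous values. Ly6a, the membrane protein Sca-1, had 1746, 2756 and 2817 in the controls and 7699, 9416 and 10101 in the intravenous libraries (log2 fold change 1.92, SE 0.20, adjusted p = 0.000744). All 3 intravenous values lay far above the highest control value. Plac8, a small cysteine-rich protein, had 2057, 3159.9 and 3033 against 9519.7, 10542 and 9031 (log2 fold change 1.84, SE 0.19, adjusted p = 0.000744), and Arg1, which splits arginine into ornithine and urea, had 1525, 1538 and 1901 against 3928, 3710.2 and 4741 (log2 fold change 1.32, SE 0.17, adjusted p = 0.0025). Both were again without overlap. Among the other leaders were the protease inhibitor Csta1 (1.69, adjusted p = 0.000744), the epidermal protease Asprv1 (1.2, adjusted p = 0.00287), the cornified envelope protein Cysrt1 (1.67, adjusted p = 0.000948), the surface antigen Psca (1.39, adjusted p = 0.00259), the DNA exonuclease Trex2 (1.19, adjusted p = 0.00173) and Pnp, an enzyme of purine salvage (1.41, adjusted p = 0.00287). Pbp2 (1.46, adjusted p = 0.00219) and Psme2b (1.36, adjusted p = 0.00287) also led, but have near-identical relatives in the genome, as has Csta1, so the division of reads among copies is uncertain. Ly6a, Plac8, Csta1 and Psca were also higher than in the DED model, with log2 fold changes of 1.30, 0.94, 1.05 and 0.87 and adjusted p of 0.00718, 0.0217, 0.0116 and 0.028. For Gch1 that difference did not pass (0.51, adjusted p = 0.248). All 15 passed without each library in turn and with the trend in transcript length, described below, removed.

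The 15 genes that led the fall were chosen in the same way. Itgb4, the integrin beta4 chain of hemidesmosomes, had 2135, 1638 and 1884 normalized counts in control 1, 2 and 3 and 591, 649.9 and 668 in intravenous 1, 2 and 3 (log2 fold change -1.56, SE 0.17, adjusted p = 0.000948). Col17a1, the hemidesmosomal collagen that binds it, had 13893, 9857 and 11768 against 4541, 5184 and 4367 (log2 fold change -1.32, SE 0.18, adjusted p = 0.00259). The groups were far apart for both, and the DED libraries lay between, at 856, 1223 and 981 for Itgb4 and 6172, 7211 and 6574 for Col17a1. Cyp26b1, which breaks down retinoic acid, had 1532, 1397 and 1007 against 322, 279 and 459.7 (log2 fold change -1.90, SE 0.23, adjusted p = 0.0015). Celsr2, a cadherin of the planar polarity family, had 466, 368 and 377 against 101, 85.4 and 168 (log2 fold change -1.82, SE 0.22, adjusted p = 0.00173), with its relative Celsr1 at -1.49, adjusted p = 0.0034. Plexins, the receptors for semaphorins, supplied 3 more: Plxna1 (-1.61, adjusted p = 0.00293), Plxnb1 (-1.21, adjusted p = 0.0034) and Plxna3 (-1.40, adjusted p = 0.0034). The remaining leaders were the basement membrane protein Frem2 (-1.93), the adhesion protein Tns4 (-1.38), the mechanosensitive channel Piezo2 (-1.67), the lipid transporter Abca2 (-1.37), the adhesion receptor Adgrg1 (-1.13), the phosphatase Ptprs (-1.10) and Bnc1, a transcription factor of basal keratinocytes (-1.36), with adjusted p of 0.00295, 0.00287, 0.00295, 0.00295, 0.00307, 0.00307 and 0.00338. None of the 15 passed in the intravenous group against the DED model, where their log2 fold changes ran from -0.83 (Celsr2) to -0.03 (Plxnb1). All 15 passed without each library in turn and with the length trend removed.

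**Figure D2:**
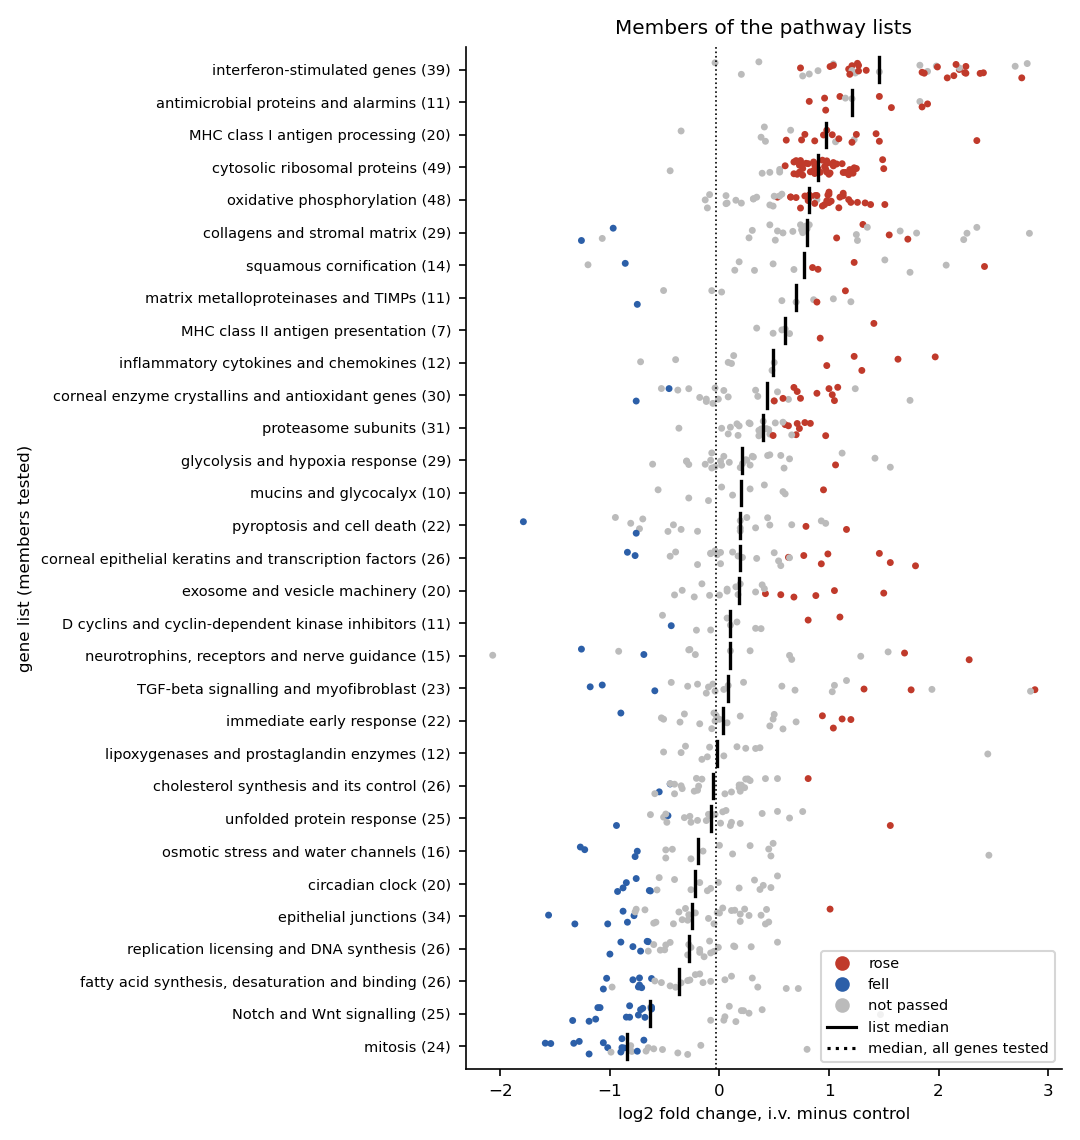
Log2 fold change, intravenous minus control, of every tested member of 31 pathway lists (points), with list medians (bars) and the median of all genes tested (dotted line, -0.03). Interferon-stimulated genes have the highest median (1.46) and mitosis the lowest (-0.84).

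Interferon-stimulated genes made up the list with the highest median. Interferons act through the STAT transcription factors and the IRF family to switch on a common set of antiviral and antigen-presentation genes, many of which carry the interferon-stimulated response element, bound by IRF factors, in their promoters. Of 39 tested members 23 rose and 0 fell, with a median log2 fold change of 1.46 beside -0.03 over all genes tested, where 10.8% rose. Ifi47, an interferon-induced GTPase, had 182, 291 and 334 normalized counts in control 1, 2 and 3 and 871, 891 and 1443 in intravenous 1, 2 and 3 (log2 fold change 1.99, SE 0.23, adjusted p = 0.0014). Irf1, the transcription factor that interferon-gamma induces, had 2287, 2818 and 2622 against 4726, 4539 and 6380.3 (log2 fold change 1.01, SE 0.18, adjusted p = 0.00585). In both, intravenous 3 was the highest library and no intravenous value was in the control range. Ifi35 had 533, 991 and 849 against 1496, 1891 and 1834 (log2 fold change 1.18, SE 0.21, adjusted p = 0.00643), and the membrane protein Ifitm1, which restricts virus entry, had 7475, 8805 and 8409 against 20297, 20844 and 15511 (log2 fold change 1.19, SE 0.17, adjusted p = 0.00307). Nmi, a partner of Ifi35 and STAT proteins that was among the leading genes, had 380.2, 446 and 494 against 945, 1120.5 and 1035 (log2 fold change 1.23, SE 0.15, adjusted p = 0.00173).

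The intravenous group was set apart from the DED model in these genes as well. Against it 13 of the 39 interferon-stimulated genes rose and 0 fell, with a median of 1.58, among them Ifi47 (1.82, adjusted p = 0.00252), Irf1 (0.83, adjusted p = 0.0282) and Ifi35 (1.01, adjusted p = 0.0278). Over all 14222 genes 223 rose in that comparison. Of the 13 calls, those of Ifi47 and Gbp2 held without each DED and intravenous library. The DED model against control had a median of -0.09, with 1 member up and 1 down. The riser there was Ifitm1, at 25417, 21844 and 20911 in DED 1, 2 and 3, and intravenous and DED libraries did not differ in it past the threshold (-0.27, adjusted p = 0.421). The faller was Gbp2, a guanylate-binding protein, at 479, 580.4 and 549.5 in the controls, 326, 304 and 268 in the DED libraries and 849, 845 and 990.1 in the intravenous ones (log2 fold change 0.74, SE 0.15, adjusted p = 0.00878). The 2 eye drop libraries had 684 and 749 for Gbp2 and 486 and 511 for Ifi47, above the controls and below the intravenous libraries, and the median of the list in the eye drop group was 0.61 against control. The count of risers was 12 without control 1 and 10 without intravenous 2, and 19 with the length trend removed.

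Several antiviral members varied widely between libraries. Oas1a, a sensor of double-stranded RNA, had 115, 354 and 366 in the controls and 689, 1202 and 1737 in the intravenous libraries (log2 fold change 2.19, SE 0.43, adjusted p = 0.0108). Isg15, a ubiquitin-like protein, had 245, 1522 and 1444 against 2804, 6397 and 9304 (log2 fold change 2.76, SE 0.70, adjusted p = 0.0299). Control 1 was the lowest and intravenous 3 the highest library in both, and the groups did not overlap. The Isg15 call was lost without intravenous 2 or intravenous 3, and with the length trend removed. Usp18, which removes Isg15 from proteins, had 69.5, 229 and 207 against 245, 689 and 1042 (log2 fold change 1.90, SE 0.63, adjusted p = 0.0644), and Mx1, a GTPase against viruses, had 6.66, 10.6 and 11.2 against 6.56, 25.2 and 46.3 (log2 fold change 1.04, SE 0.59, adjusted p = 0.217). Neither passed, and the Mx1 groups overlapped. Oas1a has close paralogs, so its reads may be split among them. Gbp2, Oas1a, Isg15, Usp18 and Mx1 were picked for description after their values were seen.

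The interferon-stimulated response element was looked for as GAAANNGAA on either strand in the 250 bases before the RefSeq start site (GRCm38.p6). It was present for 17 of the 31 interferon-stimulated genes with a promoter in the table (54.8%), for 10 of the 21 such genes that rose (47.6%), for 4 of 16 genes of MHC class I antigen processing (25%), and for 754 of 10319 of all genes tested (7.31%). The windows of 4 risen genes that hold it are given because their genes are described here. Each is written 5′ to 3′ along the gene, ending at the base before the start site, with the match in capitals. They are B2m at chr2:122147437-122147686 on the plus strand, Gbp2 at chr3:142620413-142620662 on the plus strand, Oas1a at chr5:120907526-120907775 on the minus strand and H2-T22 at chr17:36042743-36042992 on the minus strand.
B2m: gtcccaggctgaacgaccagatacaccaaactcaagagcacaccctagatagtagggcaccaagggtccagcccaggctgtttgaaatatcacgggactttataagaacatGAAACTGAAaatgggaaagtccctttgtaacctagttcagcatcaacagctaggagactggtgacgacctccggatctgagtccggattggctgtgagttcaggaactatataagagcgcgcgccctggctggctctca
Gbp2: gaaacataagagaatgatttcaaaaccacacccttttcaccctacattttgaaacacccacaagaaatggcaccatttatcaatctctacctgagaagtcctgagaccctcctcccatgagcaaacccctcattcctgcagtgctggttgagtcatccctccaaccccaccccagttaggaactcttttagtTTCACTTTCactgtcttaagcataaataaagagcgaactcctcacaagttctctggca
Oas1a: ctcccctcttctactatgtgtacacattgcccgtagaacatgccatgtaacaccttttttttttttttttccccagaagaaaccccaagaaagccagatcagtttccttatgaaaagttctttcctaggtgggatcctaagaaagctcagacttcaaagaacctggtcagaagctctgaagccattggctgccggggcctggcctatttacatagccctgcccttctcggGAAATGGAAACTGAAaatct
H2-T22: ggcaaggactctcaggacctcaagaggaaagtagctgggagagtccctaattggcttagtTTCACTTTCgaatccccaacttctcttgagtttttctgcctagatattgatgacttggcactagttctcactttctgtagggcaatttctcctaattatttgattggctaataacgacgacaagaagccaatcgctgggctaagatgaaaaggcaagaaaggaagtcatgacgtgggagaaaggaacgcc
The capitals begin 139 bases before the start site of B2m, 58 before that of Gbp2, 20 before that of Oas1a, where 2 matches overlap, and 190 before that of H2-T22. In Gbp2 and H2-T22 the letters lie on the opposite strand. A match describes the letters alone and is no measured binding site.

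**Figure D3:**
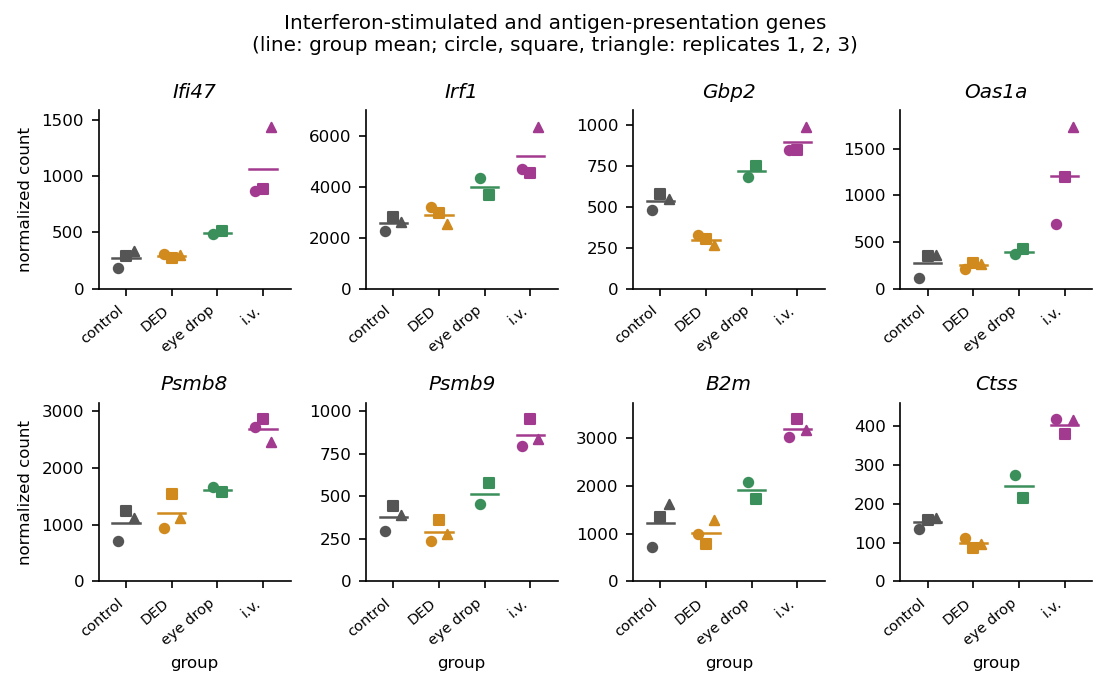
Normalized counts of 8 interferon-stimulated or antigen-presentation genes in the libraries of the 4 groups, with group means as lines. For each gene the 3 intravenous libraries are above all controls and above the DED libraries.

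Many genes of MHC class I antigen processing rose as well. MHC class I molecules carry peptides cut by the proteasome, moved by TAP and fitted in the endoplasmic reticulum, and interferon exchanges catalytic subunits of the proteasome for Psmb8, Psmb9 and Psmb10. Of 20 members, all tested, 13 rose and 0 fell (median 0.97, against 10.8% of all genes rising and a median of -0.03). Psmb8 had 715, 1241 and 1108 normalized counts in control 1, 2 and 3 and 2717, 2859 and 2459 in intravenous 1, 2 and 3 (log2 fold change 1.43, SE 0.22, adjusted p = 0.00361), and Psmb9 had 294, 442 and 392 against 798, 952 and 837 (log2 fold change 1.21, SE 0.20, adjusted p = 0.00459). All intravenous values of both lay far above the controls. Psme2, a subunit of the proteasome activator that interferon-gamma induces, had 1174, 1626 and 1295 against 3155, 3961 and 2658 (log2 fold change 1.25, SE 0.19, adjusted p = 0.00361), though reads may be shared with its copy Psme2b. B2m, the light chain common to all class I molecules, had 714, 1360.0 and 1626 against 3034, 3403 and 3167 (log2 fold change 1.46, SE 0.26, adjusted p = 0.00643), and the non-classical heavy chain H2-T22 had 459, 693 and 627 against 1062, 1340.4 and 1201 (log2 fold change 1.03, SE 0.17, adjusted p = 0.00496), with reads that may be shared within the H2-T family. The peptide transporter did not pass: Tap1 had 601, 809 and 737 against 741, 1085 and 1740.3 (0.65, adjusted p = 0.0901) and Tap2 539, 835 and 669 against 702, 817 and 1263 (0.42, adjusted p = 0.262). B2m, Tap1 and Tap2 were picked after their values were seen. Compared with the DED model 10 rose and 0 fell, among them Psmb9 (1.59, adjusted p = 0.00234), Psmb8 (1.19, adjusted p = 0.0163) and H2-T22 (1.0, adjusted p = 0.0121), while the DED model against control had a median of -0.03 with 0 called by limma and 2 at an unadjusted p under 0.05. Over all 14222 genes 223 rose in the intravenous group against the DED model. Of the 10 calls, those of B2m and Psmb9 held without each DED and intravenous library. The count of risers against control was 7 without control 1, and 11 with the length trend removed.

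In MHC class II presentation 2 of 7 tested members rose and 0 fell (median 0.60, and -0.02 with no scaling), where 10.8% of all genes rose. One was Ctss, the protease that trims the class II invariant chain, which had 135, 159 and 163 normalized counts in the controls and 419, 379.6 and 416 in the intravenous libraries (log2 fold change 1.41, SE 0.17, adjusted p = 0.00173). The DED libraries were below the controls in it, at 112, 86.2 and 96.9, and the difference between intravenous and DED libraries passed (log2 fold change 2.04, SE 0.17, adjusted p = 0.00024). The other was the class II chain H2-Eb1, at 65.1, 82.8 and 74.6 against 199, 164 and 85.3 (0.92, adjusted p = 0.0346). It stood near the controls in intravenous 3 and did not pass without control 1, control 3, intravenous 1 or intravenous 2.

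Genes of ribosomes and mitochondrial respiration rose in large numbers, together with a trend in transcript length. Among 49 tested genes for cytosolic ribosomal proteins 44 rose and 0 fell (median 0.90), where 10.8% of all genes rose. Among 48 genes of oxidative phosphorylation 31 rose and 0 fell (median 0.82). Rpl35 had 5246, 8004 and 6235 normalized counts in control 1, 2 and 3 and 19604, 23957 and 12323 in intravenous 1, 2 and 3 (log2 fold change 1.49, SE 0.25, adjusted p = 0.00532), and Rps14 had 8222, 14942 and 9957 against 33566, 40724 and 20129.6 (log2 fold change 1.5, SE 0.28, adjusted p = 0.00719). Intravenous 3 was the lowest of its group in both, and reads of ribosomal protein genes may be shared with their processed copies. Rpl32 and Rps25 rose by 1.23 and 0.98 (adjusted p = 0.00643 and 0.00783). Ndufa4, a subunit associated with cytochrome c oxidase, had 2764, 3488 and 3833 against 8577, 10866 and 7065 (log2 fold change 1.38, SE 0.19, adjusted p = 0.00293), and the DED libraries overlapped the intravenous ones, at 8308, 7039 and 8250.0. Cox7a2, of the same enzyme, and Ndufa6 and Ndufs4, of complex I, rose by 1.26, 1.18 and 0.98 (adjusted p = 0.005, 0.00532 and 0.00643). The count of risen ribosomal protein genes was 6 without control 1, 22 without control 3, 17 without intravenous 1 and 17 without intravenous 2, and that of respiration genes 9 without control 1, 18 without intravenous 1 and 20 without intravenous 2. Against the DED model 0 members of either list were called by limma, with 38 and 20 at an unadjusted p under 0.05 and medians of 0.56 and 0.38.

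**Figure D4:**
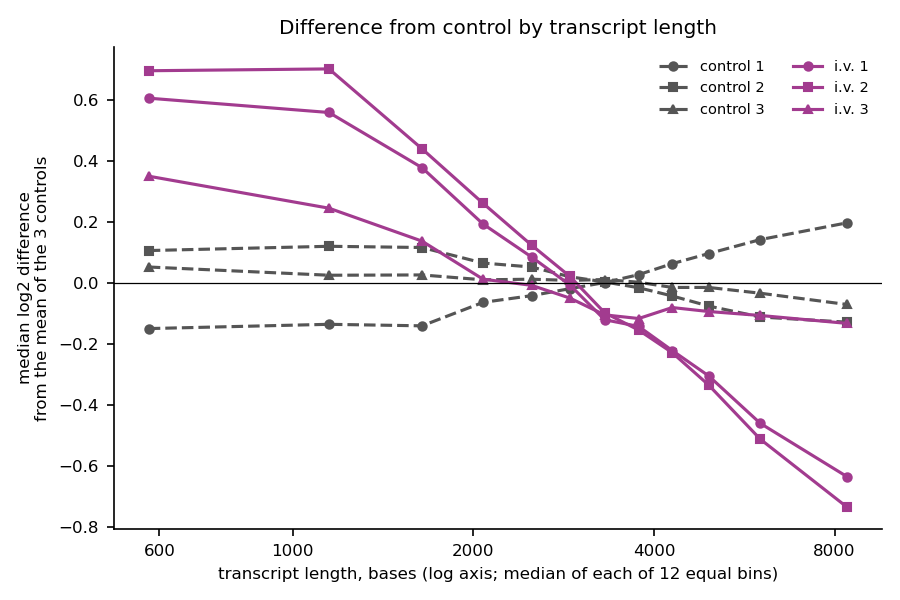
Median log2 difference of each of the 6 libraries from the mean of the 3 controls, by transcript length in 12 bins of equal gene number (log axis). Intravenous 1 and 2 fall steeply from short to long transcripts, intravenous 3 less so, and control 1 slopes the other way.

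The log2 fold changes moved with transcript length over all genes. Length was the longest GENCODE transcript of the symbol, known for 14136 genes (99.4%), and its rank correlation with the log2 fold change was -0.42 across genes, which are not independent replicates. With genes in 3 equal groups by length, the median was 0.33 in the shortest, with 1041 risen and 83 fallen. The middle group had a median of -0.05 (351 and 298), and the longest -0.33, with 127 risen and 815 fallen. The median length was 1569 bases for genes that rose, 4981 for those that fell and 3092 for all. Library by library, the rank correlation of the difference from the control mean was -0.44, -0.48 and -0.19 in intravenous 1, 2 and 3. It was -0.33 for the DED model against control, and -0.28 for the intravenous group against the DED model, a comparison that uses no control library. A smooth trend in length was therefore removed from every library as an alternative chosen after seeing the data. It gave 1538 calls, and 1305 of the 2733 calls were kept in the same direction. Ribosomal protein risers then numbered 21 (median 0.54) and respiration risers 17 (median 0.42). The cause of this trend was not tested.

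Subunits of the standard proteasome rose in 9 of 31 cases and fell in 0 (median 0.40, but -0.26 with no scaling), where 10.8% of all genes rose. Psmd8, of the regulatory particle, had 1236, 1619.9 and 1439.5 normalized counts in the controls and 2622, 2819 and 2179.8 in the intravenous libraries (log2 fold change 0.83, SE 0.16, adjusted p = 0.00771). Psmb4 of the core (0.97, adjusted p = 0.014) did not pass without control 1 or intravenous 1, and Psma7 (0.78, adjusted p = 0.015) and Psma3 (0.71, adjusted p = 0.0258) did not without control 1, intravenous 1 or intravenous 2. The count was 1 without control 1, 4 without control 3, 1 without intravenous 1, 2 without intravenous 2 and 23 without intravenous 3, and 3 with the length trend removed.

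Many cell division genes fell. Of 24 mitosis genes 13 fell and 0 rose, with a median of -0.84, where 8.46% of all genes fell. Top2a, the topoisomerase of chromosome condensation, had 779, 559 and 641 normalized counts in control 1, 2 and 3 and 308, 379.6 and 260.2 in intravenous 1, 2 and 3 (log2 fold change -1.06, SE 0.20, adjusted p = 0.00682). Foxm1, the transcription factor that drives mitotic genes, had 108, 78.0 and 128 against 21, 32.2 and 54.9 (log2 fold change -1.59, SE 0.31, adjusted p = 0.00773), and Prc1, which bundles spindle microtubules, had 408, 268 and 315 against 119, 172 and 116 (log2 fold change -1.28, SE 0.23, adjusted p = 0.00643). The groups did not overlap in any of the 3. Kif11, a spindle motor, fell by 1.33 on the log2 scale (adjusted p = 0.014), but not without control 1, control 3 or intravenous 1. Against the DED model 6 mitosis genes fell and 0 rose, with Top2a at -1.09, adjusted p = 0.0161, Foxm1 at -1.54, adjusted p = 0.0217 and Prc1 at -1.0, adjusted p = 0.0401. Over all 14222 genes 117 fell in that comparison. Each of the 6 mitosis calls was lost without DED 1 and also without DED 3. In the DED model against control the list median was 0.09, with 0 members called by limma and 2 at an unadjusted p under 0.05. The count of fallen mitosis genes was 5 without control 1, 5 without control 3 and 3 without intravenous 1, and 10 with the length trend removed (median -0.79).

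Of 26 genes of replication licensing and DNA synthesis 6 fell and 0 rose (median -0.28), where 8.46% of all genes fell and 10.8% rose. Mcm2, part of the replicative helicase, had 348, 467 and 536 normalized counts in the controls and 251, 280.1 and 155 in the intravenous libraries (log2 fold change -1.0, SE 0.22, adjusted p = 0.012), with no overlap. Uhrf1, which carries DNA methylation through replication (-0.90, adjusted p = 0.0154), did not pass without control 3, and Mcm4 (-0.72, adjusted p = 0.0168) did not without control 1 or control 3. Rrm2 of ribonucleotide reductase (-0.66, adjusted p = 0.0458) was lost without control 1, control 2, control 3, intravenous 1 or intravenous 3. Of the list 5 fell against the DED model, including Uhrf1 (-1.08, adjusted p = 0.0217), Mcm4 (-0.81, adjusted p = 0.0322) and Rrm2 (-1.11, adjusted p = 0.0183). Over all 14222 genes 117 fell in that comparison. Each of the 5 calls was lost without DED 1 and also without DED 3. The count of fallers against control was 3 without control 2, 1 without control 3 and 3 without intravenous 1, and 3 when DED 3, eye drop 1 or eye drop 2 was left out. Myc, a driver of growth and proliferation, had 175, 168 and 173 in the controls and 97.1, 86.8 and 91.1 in the intravenous libraries (log2 fold change -0.90, SE 0.17, adjusted p = 0.00684) and was below the DED libraries too (-0.88, adjusted p = 0.0183). Of 11 D cyclins and cyclin-dependent kinase inhibitors, the inhibitors Cdkn2b (0.81, adjusted p = 0.0119) and Cdkn1c (1.1, adjusted p = 0.0324) rose and Ccnd1 (-0.44, adjusted p = 0.0473) fell, with a median of 0.10 that was -0.24 with library totals and -0.56 with no scaling. None of these 3 calls held without control 1 or with the length trend removed.

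Many Notch and Wnt genes fell. These pathways pass signals between neighbouring cells and steer whether epithelial cells stay basal or differentiate. Of 25 tested 14 fell and 0 rose (median -0.63, with 8.46% of all genes falling), and 11 did not pass, 9 of the 25 having a log2 fold change above 0. The ligand Jag2 had 1244, 891 and 1008 normalized counts in the controls and 509, 532 and 389 in the intravenous libraries (log2 fold change -1.13, SE 0.20, adjusted p = 0.00559), and Jag1 had 1198, 897 and 704 against 337, 389 and 484 (log2 fold change -1.19, SE 0.21, adjusted p = 0.00575). The receptor Notch1 had 839.6, 706 and 703 against 259, 314 and 509 (log2 fold change -1.11, SE 0.21, adjusted p = 0.00755), and Notch3 had 1798, 1986 and 1710.1 against 593, 518 and 1221 (log2 fold change -1.34, SE 0.26, adjusted p = 0.00833). In both receptors intravenous 3 was nearest to the controls, without reaching them. DED libraries had 358, 358 and 408 for Notch1, and against the DED model the list had a median of -0.14 with 1 member up and 0 down. The count of fallers against control was 5 without control 1, 8 without control 3, 7 without intravenous 1 and 8 without intravenous 2, and 9 with the length trend removed.

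Among 34 genes of epithelial junctions 6 fell and 1 rose (median -0.25), where 8.46% of all genes fell and 10.8% rose. Beside Itgb4 and Col17a1, Dst, the plakin that links hemidesmosomes to keratins, had 4522, 2243 and 2839.9 normalized counts against 1651, 1657 and 1696 (log2 fold change -0.88, SE 0.21, adjusted p = 0.0155). It did not pass without control 1 or with the length trend removed. The riser was Cldn23, a tight junction protein, at 1589, 1898 and 1798 against 3033, 2659.8 and 5462 (1.01, adjusted p = 0.0142), where intravenous 3 was the highest, and it too was lost without control 1. The count of fallers was 2 without control 1 and 18 without intravenous 3, and 3 with the length trend removed. In the list of neurotrophins, their receptors and nerve guidance, 2 of 15 rose and 2 fell (median 0.10, but -0.24 with library totals and -0.56 with no scaling). Ngfr, the low-affinity neurotrophin receptor, had 408, 363 and 369 against 188, 126 and 166 (log2 fold change -1.26, SE 0.21, adjusted p = 0.00496), with the DED libraries at 111, 188 and 150.1. Sema3f, a semaphorin (-0.69, adjusted p = 0.017), fell, and the receptors Ntrk2 (1.69, adjusted p = 0.0194) and Gfra1 (2.28, adjusted p = 0.0399) rose. Of these only Ngfr passed without each library.

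Circadian clock genes fell in part against control, and several differed from the DED model. In the clock, Clock and Arntl drive the Per, Cry and Nr1d genes, which feed back on them, and drive output factors such as Dbp, Tef and Hlf. Against control 6 of 20 tested fell and 0 rose (median -0.22), where 8.46% of all genes fell. Hlf had 2833, 2077 and 2972 normalized counts in control 1, 2 and 3 and 1256, 1433 and 1391 in intravenous 1, 2 and 3 (log2 fold change -0.93, SE 0.18, adjusted p = 0.00799), and was the only one of the 6 fallers that passed without each library. Per3 had 1359.7, 927 and 911 against 543, 504 and 713 (log2 fold change -0.85, SE 0.19, adjusted p = 0.0116), lost without control 1. Bhlhe40, a repressor in the loop, had 1756, 1967 and 2005 against 976, 1158 and 1623 (-0.64, adjusted p = 0.0263), and Arntl 126, 136 and 114 against 77.4, 64.4 and 78.1 (-0.76, adjusted p = 0.0265), both lost under 5 of the 6 omissions. The count of fallers was 1 without control 1, 2 without control 3, 2 without intravenous 1 and 2 without intravenous 2, and 3 with the length trend removed.

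Dbp, Tef and Arntl stood apart from the DED model. Dbp had 1299, 1779 and 1401 normalized counts in the controls, 111, 318 and 257 in DED 1, 2 and 3 and 1982, 2052 and 1551 in the intravenous libraries. The log2 fold change was 3.14, SE 0.30, adjusted p = 0.000433 against the DED model and 0.32 (adjusted p = 0.463) against control, where the groups overlapped. Tef had 2199, 1781 and 2093 in the controls, 369.7, 770.0 and 589 in the DED libraries and 1793, 1696 and 1837 in the intravenous ones (1.68, adjusted p = 0.00252 against the DED model, -0.18, adjusted p = 0.562 against control). Arntl went the other way, with DED libraries at 420.5, 254 and 353 (log2 fold change -2.18, SE 0.21, adjusted p = 0.000318 against the DED model). Per3 and Nr1d2, a repressor of Arntl, lay between: their log2 fold changes were 0.92 and 1.12 against the DED model (adjusted p = 0.0238 and 0.0141) and -0.85 and -0.63 against control (adjusted p = 0.0116 and 0.0419). The Nr1d2 call against control was lost without control 1, control 3, intravenous 1 or intravenous 2, and with the length trend removed. In comparison with the DED model 7 clock genes rose and 2 fell, where 223 and 117 of all 14222 genes did. Of the clock gene calls, those of Dbp, Tef and Arntl held without each DED and intravenous library. The labels give no time of day, so its part in clock gene levels was not tested. In the 250 bases before the start site, an E-box (CACGTG) was present for 5 of 16 clock genes with a promoter in the table (31.2%, against 9.63% of all genes tested), a D-box (TTATGNAA or TTANNTAA) for 3 (18.8%, against 5.7%) and the ROR element NTAGGTCA for 0 (against 1.89%). Of the 5 clock genes that fell and have a promoter in the table, 0 held the E-box, 1 the D-box and 0 the ROR element.

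**Figure D5:**
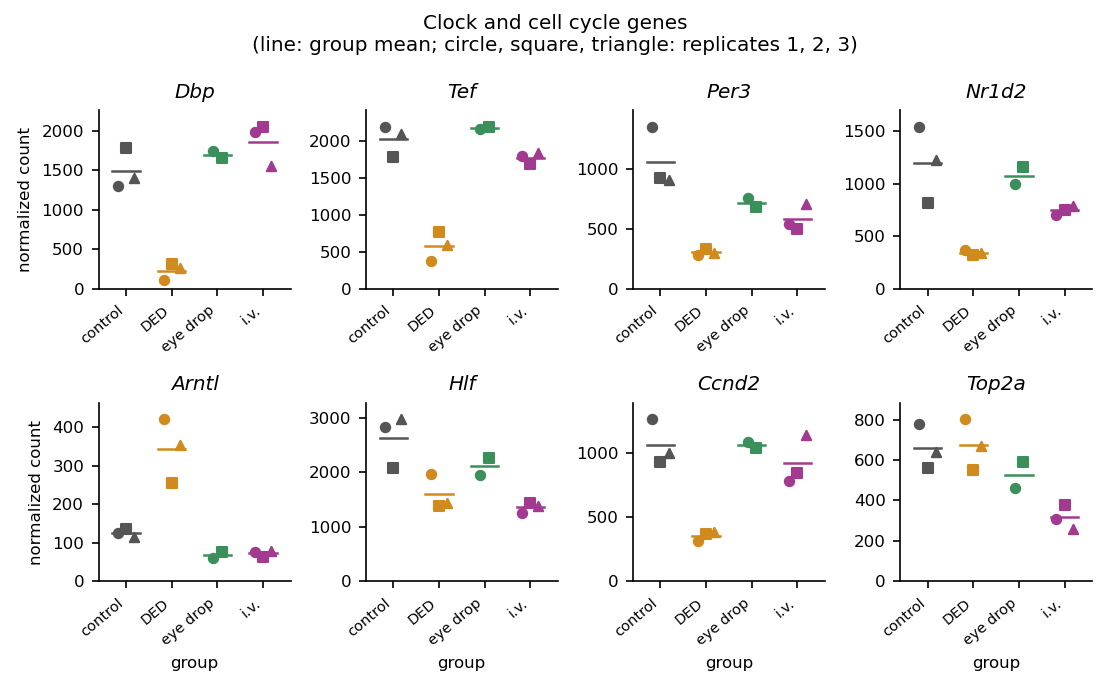
Normalized counts of 6 clock genes, Ccnd2 and Top2a in the libraries of the 4 groups, with group means as lines. Dbp, Tef and Ccnd2 of the intravenous libraries lie at or near the control values and well above the DED libraries, while Top2a is lowest in the intravenous group.

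Other genes that set the DED model apart from control took several positions in the intravenous group. These were named by their calls in the DED comparison, which shares the controls, so the levels are given as a description. Ccnd2, a D cyclin, had 1261, 929.8 and 998 normalized counts in the controls, 317, 369 and 383 in the DED libraries and 781, 845 and 1135 in the intravenous ones (1.35, adjusted p = 0.00252 against the DED model, -0.21, adjusted p = 0.393 against control). Cyp2a5, a cytochrome P450, had 451, 521 and 589 in the controls, 135, 170.1 and 106 in the DED libraries and 534, 931 and 601 in the intravenous ones (2.31, adjusted p = 0.000318 against the DED model), and Snx31, a sorting nexin, had 952, 1029.9 and 902 in the controls, 476, 456 and 379 under DED and 925, 789.9 and 857 in the intravenous libraries (0.97, adjusted p = 0.00699). Las1l, a factor of ribosome assembly, was high in DED at 1441, 1221 and 1172, with controls at 561, 536 and 510.3 and intravenous libraries at 555, 671 and 601 (-1.07, adjusted p = 0.00452 against the DED model, 0.18, adjusted p = 0.394 against control). In these 4, intravenous and control values overlapped, and none passed against control. Pigz, an enzyme of glycosylphosphatidylinositol anchor synthesis, lay between, with 34.1, 46.2 and 54.9 in the intravenous libraries, 18.5, 17.3 and 10.3 in the controls and 245, 244 and 165 in the DED libraries (-2.25, adjusted p = 0.0029 against the DED model, 1.51, adjusted p = 0.00834 against control). Asb2, a ubiquitin ligase subunit, rose against control (2.41, adjusted p = 0.00532) and Gldc, which cleaves glycine, fell (-0.80, adjusted p = 0.0078), and neither differed from the DED model past the threshold. Asb2 was lost without intravenous 1, intravenous 2 or intravenous 3, at 2.22, 6.74 and 6.53 normalized counts in the controls and 26.2, 26.6 and 36.1 in the intravenous libraries. Its recovered counts were under 10 in all 3 controls, so it met the count filter only through the group where it is high. That held for 31 of all risers, Tpsb2 below among them, and 41 fallers, Nlrp1b below among them, met it only through the controls. Without any 1 library of the group where it is high, such a gene is under the filter and not tested. Its loss there was fixed beforehand, so it could not be among the calls that held without each library.

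Inflammatory cytokine genes were raised in part. Of 12 tested 5 rose and 0 fell (median 0.49, -0.18 with no scaling), where 10.8% of all genes rose. Another 15 of the 27 in the table were under the count filter, among them Il1b, Cxcl9 and Cxcl10. Il18, a cytokine that raises interferon-gamma, had 652, 589 and 781 normalized counts in the controls and 1332, 1555 and 1110.1 in the intravenous libraries (log2 fold change 0.98, SE 0.17, adjusted p = 0.00539). Il1f9, the interleukin-36 gamma gene, had 212, 236 and 408 in the controls, 1839, 975 and 1106 in the DED libraries and 580.1, 599 and 877 in the intravenous ones (log2 fold change 1.30, SE 0.28, adjusted p = 0.0112 against control). The intravenous values were below all 3 DED values, but that difference did not pass (-0.90, adjusted p = 0.108). Il1f8, for interleukin-36 beta, and Il1f6, for interleukin-36 alpha, rose by 1.23 and 1.63 against control (adjusted p = 0.0101 and 0.0154) with differences of -0.92, adjusted p = 0.0775 and -1.18, adjusted p = 0.123 from the DED model. Tnf, also a riser and named after its values were seen, had 47.3, 43.3 and 57.8 against 80.1, 192 and 479.9 (1.97, adjusted p = 0.0193), highest in intravenous 3. The count of risers was 1 without control 1, and 0 with the length trend removed.

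Antimicrobial proteins rose in 8 of 11 tested cases and fell in 0 (median 1.21), where 10.8% of all genes rose and 8.46% fell. Ltf, lactoferrin, had 175, 248 and 296 normalized counts against 580.1, 649.9 and 893 (log2 fold change 1.57, SE 0.28, adjusted p = 0.00643), and S100a7a, a psoriasin-related alarmin, had 168, 288 and 423 against 664, 920.2 and 1590.0 (log2 fold change 1.85, SE 0.37, adjusted p = 0.0106). Their groups did not overlap, and both calls held without each library. S100a6, a calcium-binding protein (0.96, adjusted p = 0.00949), and Pglyrp1, which binds bacterial peptidoglycan (0.97, adjusted p = 0.0102), were lost without control 1. The count was 3 without control 1, and 2 with the length trend removed. Of 14 tested genes of squamous cornification 4 rose and 1 fell (median 0.77). Krt6b, a stress keratin with a near-identical copy in Krt6a, had 46142, 54883 and 50714 against 89232, 88317 and 95795 (log2 fold change 0.85, SE 0.15, adjusted p = 0.0064), and Lce3a, a late envelope protein, had 58.4, 132 and 191 against 421, 676 and 811 (log2 fold change 2.42, SE 0.51, adjusted p = 0.015). Klk8, a protease of desquamation, rose by 1.23 (adjusted p = 0.0108), and Ivl, an envelope precursor, fell by 0.86 on the log2 scale (adjusted p = 0.0327). Ivl was also lower than in the DED model (-1.35, adjusted p = 0.0169), where its libraries had 268, 187 and 123. Klk8 was lost without control 1, Lce3a without control 1 or intravenous 2, and Ivl without 5 of the 6 libraries, all but intravenous 3. The count of risers was 1 without control 1 and 2 without intravenous 2.

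Several lipid synthesis genes fell. Of 26 genes of fatty acid synthesis, desaturation and binding 8 fell and 0 rose (median -0.37), where 8.46% of all genes fell and 10.8% rose. Acaca, the rate-limiting carboxylase of fatty acid synthesis, had 469, 442 and 409.6 normalized counts in the controls and 177, 181 and 292 in the intravenous libraries (log2 fold change -1.06, SE 0.19, adjusted p = 0.00606), and the desaturase Fads2 had 457, 616 and 559.8 against 352, 321 and 319 (log2 fold change -0.71, SE 0.15, adjusted p = 0.0101). Intravenous and control libraries did not overlap in either. Fads1 fell by 0.73 (adjusted p = 0.0095) and Cpt1a, which brings fatty acids into mitochondria, by 0.79 (adjusted p = 0.0116, lost without control 1). Acaca and Fads2 were lower than in the DED model too (-1.07, adjusted p = 0.0136 and -0.81, adjusted p = 0.0166), as were 6 of the list in all. Over all 14222 genes 117 fell in that comparison. Of the 6 calls only that of Scd1, another desaturase, held without each DED and intravenous library. The count of fallers against control was 3 without control 1 and 4 without intravenous 1, and 5 with the length trend removed. In cholesterol synthesis 1 of 26 rose and 2 fell (median -0.06), whereas 5 fell and 0 rose against the DED model (median -0.39). Of those 5 calls only that of Fdps held without each DED and intravenous library. Against control the count of fallers was 7 without intravenous 3 and 0 without control 1, control 3, intravenous 1 or intravenous 2. Pmvk of the mevalonate pathway rose (0.81, adjusted p = 0.0106) and the last enzyme, Dhcr7, fell (-0.55, adjusted p = 0.0468), and none of the 3 calls against control held without control 1. The sterol element TCACNCCAC was present in the window of 1 of 19 of these genes (5.26%, against 1.29% of all genes tested). Of 12 genes for lipoxygenases and prostaglandin enzymes limma called 0, with 2 at an unadjusted p under 0.05 and 0 by limma voom (median -0.02). Ptgs1, a cyclooxygenase, had the smallest p, at 329.9, 362 and 325 against 172, 256 and 301 (-0.51, adjusted p = 0.0737).

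The corneal keratins and transcription factors held 7 risers and 2 fallers among 26 tested, where 10.8% of all genes rose and 8.46% fell. Their median was 0.19, but -0.15 with library totals and -0.48 with no scaling. Krt7, a keratin of simple and conjunctival epithelia, had 885, 1255 and 1182 normalized counts in the controls and 2980.3, 3934 and 2878 in the intravenous libraries (log2 fold change 1.56, SE 0.22, adjusted p = 0.00295). Krt13, a keratin of non-cornified stratified epithelia such as conjunctiva, had 34140.3, 42586 and 42946 against 68885, 82399 and 75507 (log2 fold change 0.93, SE 0.17, adjusted p = 0.00643), and Krt23 had 155, 256 and 317 against 617, 727 and 1171 (log2 fold change 1.79, SE 0.31, adjusted p = 0.00606). All 3 were without overlap, and Krt7 and Krt13 were also higher than in the DED model (1.03, adjusted p = 0.028 and 0.91, adjusted p = 0.0161). Trp63, the transcription factor of basal and limbal cells, had 2304, 1663 and 2119.6 against 1013, 1219.9 and 1148 (log2 fold change -0.84, SE 0.18, adjusted p = 0.0111), a call lost without control 1. Krt15, another basal keratin, rose against control (0.63, adjusted p = 0.045, -0.04 with no scaling) and against the DED model (0.97, adjusted p = 0.0253), and the first of these was lost without control 1, control 3, intravenous 1 or intravenous 2. Krt5, the basal keratin, had 185826, 278178 and 234976 against 214480.0, 231199 and 249149 and did not pass (0.01, adjusted p = 0.979, -0.66 with no scaling). The count of risers was 3 without control 1, 4 without control 3 and 4 without intravenous 2, and 4 with the length trend removed.

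Markers of conjunctiva and goblet cells moved with Krt7 and Krt13, which are on that list as well. Of 6 tested 4 rose and 0 fell (median 0.96), where 10.8% of all genes rose. The other risers were Krt4 (0.99, adjusted p = 0.0127) and Krt19 (0.77, adjusted p = 0.0291), which are on the keratin list too. The summed level of the 13 markers in the table was 41784 to 54654 in the controls and 86424 to 108208 in the intravenous libraries. Krt13 alone made up 76.1% to 81.8% of these sums. Without Krt13 they were 7644 to 11708 in the controls and 16767 to 25809 in the intravenous libraries. Krt4 was lost without control 1 and Krt19 without control 1, control 3 or intravenous 2. The goblet cell marker Tff3 was at 0 in all 6 libraries. The other markers under the count filter were low, with higher maxima in the intravenous libraries than in the controls. Highest normalized counts, control before intravenous, were 2.8 and 17.1 for Muc5ac, 3.7 and 10.1 for Spdef and 8.1 and 15.9 for Clca1. The part of conjunctival tissue in these keratins was not tested.

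Enzyme crystallins, the enzymes that accumulate in corneal cells, and antioxidant genes had 10 risers and 2 fallers among 30 tested (median 0.43, but -0.24 with no scaling). The shares over all genes were 10.8% rising and 8.46% falling. Gsto1, a glutathione transferase and among the genes with the most counts, had 166779, 201958 and 207969 normalized counts against 383845, 373173 and 417299 (log2 fold change 1.03, SE 0.17, adjusted p = 0.00495), with no overlap. It was also above the DED libraries (0.75, adjusted p = 0.0396). Gpx4 and Gpx1, glutathione peroxidases, and Prdx5, a peroxiredoxin, rose by 1.08, 0.89 and 1.0 (adjusted p = 0.0105, 0.0124 and 0.0111), calls that were all lost without control 1. Gpx1 was lost without intravenous 1 as well. Aldh3a1, an abundant soluble enzyme of the cornea, had 136582, 200212 and 183492 against 154944, 192680.0 and 149792 and did not pass (-0.06, adjusted p = 0.849). The count of risers was 1 without control 1, 4 without control 3, 3 without intravenous 1, 5 without intravenous 2 and 6 without DED 3, and 4 with the length trend removed. Among the other genes with the most counts, Tmsb4x, an actin-binding thymosin, had 52352, 61778 and 65883 against 152466, 178003 and 102491 (log2 fold change 1.24, SE 0.20, adjusted p = 0.00459). Mal, a membrane raft protein (0.69, adjusted p = 0.0165), rose but not without control 1, and Calml3 (0.56, adjusted p = 0.0352, -0.11 with no scaling) and Gsta4 (0.68, adjusted p = 0.032) rose but were lost without control 1, control 2, control 3, intravenous 1 or intravenous 2. Emp1, an epithelial membrane protein, did not pass (0.47, adjusted p = 0.141).

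Collagens and matrix had 4 risers and 2 fallers of 29 (median 0.80), where 10.8% of all genes rose and 8.46% fell. Lamb1, a laminin chain of basement membranes, had 1217, 751 and 719 normalized counts against 395, 399 and 304 (log2 fold change -1.26, SE 0.21, adjusted p = 0.00532), and fibronectin, Fn1, had 1815, 1131 and 1383 against 649.6, 702 and 821 (log2 fold change -0.97, SE 0.22, adjusted p = 0.012), the latter lost without control 1. Col16a1 (1.07, adjusted p = 0.0384) and the proteoglycan Fmod (1.55, adjusted p = 0.044) rose, and the count of risers was 0 without control 1, 0 without control 3, 0 without intravenous 1, 0 without intravenous 2, 8 without DED 1 and 2 without DED 3. In TGF-beta signalling 3 rose and 3 fell of 23 (median 0.08, but -0.26 with library totals and -0.58 with no scaling). The receptor Tgfbr1 had 1428, 673 and 953 against 437, 409 and 435 (log2 fold change -1.18, SE 0.24, adjusted p = 0.0093) and its mediator Smad3 527, 401 and 345 against 160.1, 193 and 252 (log2 fold change -1.07, SE 0.20, adjusted p = 0.00684). Vim, vimentin of mesenchymal cells (1.75, adjusted p = 0.00954), and Acta2, smooth muscle actin (1.32, adjusted p = 0.025), rose, but not without control 1, and Acta2 not without intravenous 1 either. Matrix metalloproteinases and their inhibitors had 2 risers and 1 faller of 11 (median 0.70): Timp2 (0.89, adjusted p = 0.0195), Mmp23 (1.15, adjusted p = 0.0345) and Mmp28 (-0.75, adjusted p = 0.0419), none of which held without control 1 or control 3. Mucins and glycocalyx had 1 riser of 10 (median 0.20, but -0.14 with library totals and -0.47 with no scaling), the galectin Lgals3, at 8278, 10787 and 10500.2 against 18417, 21917 and 16899 (log2 fold change 0.95, SE 0.17, adjusted p = 0.00643).

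Stress and signalling lists were mixed, beside 10.8% of all genes rising and 8.46% falling. Of 22 immediate early genes 4 rose and 1 fell (median 0.03, but -0.04 with the 75th percentile, -0.31 with library totals and -0.63 with no scaling). Ier3, an early response gene that NF-kappaB induces, had 1118, 1349 and 1046 normalized counts against 2278, 2563 and 3283 (log2 fold change 1.2, SE 0.18, adjusted p = 0.00334) and was higher than in the DED model as well (1.0, adjusted p = 0.0138). The phosphatases Dusp1 (1.12, adjusted p = 0.0143) and Dusp5 (1.04, adjusted p = 0.0198) rose but not without control 1, and Dusp1 not without control 3 either. Intravenous 3 was far the highest library in both, at 1772, 1847 and 3267 and 2215, 2360.0 and 4930.5 in intravenous 1, 2 and 3. Myc was the faller. In pyroptosis and cell death 2 of 22 rose and 2 fell (median 0.19, but -0.15 with library totals and -0.47 with no scaling). At 9.09% each way, these counts were near the shares over all genes. Pycard, the inflammasome adaptor, had 1174, 1674 and 1432 against 3413, 4018 and 2316 (log2 fold change 1.16, SE 0.20, adjusted p = 0.00575). Nlrp1b (-1.79, adjusted p = 0.0301) and Bcl2l11 (-0.76, adjusted p = 0.0458) fell. Nlrp1b was lost without control 1, control 2, control 3 or intravenous 1, and Bcl2l11 without any library but control 2. Neither held with the length trend removed. The unfolded protein response had 1 riser and 2 fallers of 25 (median -0.08): Chac1, which breaks down glutathione (1.56, adjusted p = 0.00915, lost without control 1), Hyou1, a chaperone (-0.94, adjusted p = 0.0106), and Pdia4 (-0.47, adjusted p = 0.0473, lost without control 1, control 3, intravenous 1 or intravenous 2). Osmotic stress and water channel genes had 0 risers and 4 fallers of 16 (median -0.20), and 2 fallers with the length trend removed. The taurine transporter Slc6a6 had 3141, 2034 and 3293 against 1419, 980.4 and 1177 (log2 fold change -1.23, SE 0.21, adjusted p = 0.00532). Trpv4 (-0.75, adjusted p = 0.0128), Nfat5 (-1.27, adjusted p = 0.039) and Slc12a7 (-0.77, adjusted p = 0.0456) also fell. Trpv4 was lost without control 1 or intravenous 1, Nfat5 without control 1, control 3, intravenous 1 or intravenous 2, and Slc12a7 without any library but intravenous 3. Nfat5 and Slc12a7 did not hold with the length trend removed. Glycolysis and hypoxia had 1 riser of 29 (median 0.21, but -0.13 with library totals and -0.45 with no scaling), Ndrg1, at 1373, 1946 and 1703 against 2262, 3089.7 and 5925 (1.06, adjusted p = 0.0239), highest in intravenous 3 and lost without control 1 or control 3.

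Genes for making and releasing exosomes had 6 risers and 0 fallers of 20 tested (median 0.18, but -0.16 with library totals and -0.49 with no scaling), where 10.8% of all genes rose. Chmp4b, of the ESCRT-III complex that pinches off vesicles, had 2059, 3224 and 2806 normalized counts in the controls and 5005, 5719 and 5795 in the intravenous libraries (log2 fold change 1.05, SE 0.19, adjusted p = 0.00585). Chmp2a (0.88, adjusted p = 0.00962) and Cd63, a tetraspanin of exosomes (1.5, adjusted p = 0.0112), rose but not without control 1, and Anxa2 (0.68, adjusted p = 0.0161) was lost without control 1, control 3, intravenous 1 or intravenous 2. The count was 1 without control 1, 3 without intravenous 1 and 3 without intravenous 2, and 3 with the length trend removed. Whether any of these reads came from the injected exosomes was not tested.

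Markers of other cell types were examined in the same 6 libraries, where 10.8% of all genes tested rose and 8.46% fell. Skeletal muscle markers summed to 319.6 to 668 in the controls and 370.0 to 12151 in the intravenous libraries, with 1 of 18 tested called: Myh1, a fast myosin, had 0, 0 and 9.33 normalized counts in control 1, 2 and 3 and 319, 249 and 5.78 in intravenous 1, 2 and 3 (adjusted p = 0.0426), so the groups overlapped, with intravenous 3 below control 3. No fold change is given, since controls 1 and 2 are at 0. Without intravenous 3 the count was 15. Lens markers summed to 1084 to 4729 in the controls and 2136 to 5961 in the intravenous libraries with 1 of 15 risen, Cryab, a crystallin that is also a heat shock protein (1.0, adjusted p = 0.0148, lost without control 1 or intravenous 1), and retina markers to 3316 to 10211 in the controls and 6500.2 to 8126 in the intravenous libraries, with 0 of 23 called by limma, 1 at an unadjusted p under 0.05 and 0 by limma voom (median 0.95) and Rpe65 (2.33, adjusted p = 0.0733) of the smallest p. Cryab made up 26.1% to 96.0% of the lens sums, which without it were 151 to 3495 in the controls and 85.3 to 3404 in the intravenous libraries. Gnb1 made up 40.6% to 87.3% of the retina sums, which without it were 420 to 6064 in the controls and 2234 to 4030 in the intravenous libraries. Leaving out control 2, highest of the 6 in retina markers, and intravenous 1, highest in lens and muscle markers, gave 1144 calls. Interferon-stimulated genes had a median of 2.20 there, and mitosis genes -0.85.

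Neutrophil markers summed to 246 to 431 in the controls and 947 to 1103 in the intravenous libraries, with 2 of 3 tested risen, Ltf and Il1r2 (1.49, adjusted p = 0.00689), both of which epithelium can express. Ltf made up 56.3% to 81.0% of the neutrophil sums, which without it were 71.0 to 135 in the controls and 210 to 450 in the intravenous libraries. The defining markers Retnlg and Ly6g were at 0 in all controls and Retnlg, Ngp and Mmp8 at 0 in all intravenous libraries. Macrophage and dendritic cell markers summed to 1077 to 1187 in the controls and 1493 to 1782 in the intravenous libraries, with 1 of 11 risen, Lyz2 (1.90, adjusted p = 0.0298, lost without control 1, control 3, intravenous 1 or intravenous 2). Lymphocyte markers summed to 27.0 to 40.7 in the controls and 40.5 to 51.2 in the intravenous libraries with 1 tested, Cd79b, which did not pass (0.49, adjusted p = 0.312, -0.14 with no scaling), and Cd2 was at 0 in all 6 libraries. These levels stand beside the rises of interferon-stimulated and MHC genes, and the part of immune cells in those rises was not tested. Of 3 mast cell markers Kit fell (-1.30, adjusted p = 0.00878, lost without control 1), a gene that melanocytes use too. Tpsb2 rose at counts of 14.4, 29.4 and 15.9 in intravenous 1, 2 and 3 (2.06, adjusted p = 0.0485). That call was lost without any 1 of the 6 libraries, and without an intravenous library Tpsb2 was under the count filter and not tested. The mast cell sums were 1187 to 1642 in the controls and 451 to 927 in the intravenous libraries. Kit made up 96.9% to 98.2% of the control sums and 84.2% to 95.6% of the intravenous sums. Without Kit they were 21.5 to 40.7 in the controls and 40.5 to 82.6 in the intravenous libraries.

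Keratocyte markers summed to 139709 to 204343 in the controls and 154912 to 198036 in the intravenous libraries. Aldh3a1, which did not pass, made up 95.9% to 98.6% of these sums, and without it they were 2579 to 4131 in the controls and 5120 to 6640 in the intravenous libraries. Of the 18 tested 5 rose and 1 fell (median 1.27), where 10.8% of all genes rose and 8.46% fell. Among the risers, Cd34 had 10.4, 15.4 and 17.7 normalized counts against 86.6, 47.6 and 37.6 (1.85, adjusted p = 0.0145), Pdgfrb 4.44, 12.5 and 11.2 against 43.3, 33.6 and 20.2 (1.73, adjusted p = 0.0236) and B3gnt7 31.1, 51.0 and 40.1 against 102, 79.8 and 145 (1.38, adjusted p = 0.0263). Control 1 was lowest in each, and the count of risers was 0 without control 1, 2 without control 3, 0 without intravenous 1 and 2 without intravenous 2. Vessel markers summed to 145 to 257 in the controls and 420.2 to 605 in the intravenous libraries, with 3 of 11 risen (Egfl7, Rgs5 and Eng, at 1.55, 1.74 and 1.34), a count that was 0 without control 1, 0 without control 3, 0 without intravenous 1 and 5 without intravenous 3. Corneal endothelium had 1 riser of 13, with sums of 6707 to 7335 in the controls and 8203 to 9383 in the intravenous libraries. Iris, ciliary body and melanocyte markers had 2 risers of 12, Myoc (2.73, adjusted p = 0.0308) and Mlana (2.55, adjusted p = 0.0343), both lost without control 1, control 3 or intravenous 1, with sums of 868 to 1252 in the controls and 1219 to 3303 in the intravenous libraries. Lacrimal and meibomian gland markers had 1 of 5, Ltf, with sums of 1071 to 1384 in the controls and 1661 to 2184 in the intravenous libraries. Schwann cell and nerve markers had 1 faller of 6, L1cam (-1.54, adjusted p = 0.0188, lost without control 1, intravenous 1 or intravenous 2), with sums of 2632 to 2793 in the controls and 1770.4 to 3632 in the intravenous libraries. Mbp made up 57.5% to 75.9% of these sums, which without it were 964 to 1188 in the controls and 444 to 875 in the intravenous libraries. Red blood cell markers had 0 of 5 called by limma, 1 at an unadjusted p under 0.05 and 0 by limma voom, with Bpgm (0.50, adjusted p = 0.0913) of the smallest p and sums of 358 to 483 in the controls and 373 to 501 in the intravenous libraries. The part of such cells in the matrix and stromal gene values was not tested.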

How the data were processed

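RNA-seq of whole mouse cornea was analysed from 1 deposited table of 28548 gene lines and 12 columns. The authors deposited the values as log2(count + 1) with no scaling for depth: 99.9748% of the values gave whole counts within 0.01 when reversed. Genome build mm9 is named per the submitters' processing notes, and no aligner or counter is named in the sources used here. Lines that did not give whole counts (10) or were named by a date (9) were left out, at most 0.0495% of the counts of a library. The third eye drop column equals the mean of the other two and was left out, which left 11 libraries.

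Because the deposited unit is a log scale, the test was limma with a trend and robust variance on log2(count / median-of-ratios size factor + 1), with 4 group means, 7 residual degrees of freedom and Benjamini-Hochberg adjustment over 14222 genes. A call is an adjusted p under 0.05, two-sided. The groups come from the treatment labels, and the labels place all samples in 1 batch. Named genes were the 15 higher and 15 lower with the smallest p among calls of at least 2-fold (predicted genes left out), up to 4 calls of each list with the smallest p or, with no call, the 1 with the smallest p, up to 8 higher and 8 lower calls of at least 2-fold in DED against control, the 10 genes with the highest mean count and up to 8 calls with the highest mean count. Some genes that this rule names are not reported here. The members and lists were chosen with earlier results of these data known. Alternatives changed the scaling, filter, pseudocount, test, libraries, replicate block and length trend. Total counts of 8956553 to 14263045 per library set the counting error, which is largest for genes of few counts. Scripts were tested on simulated data. Tools were R 4.3.3, limma 3.58.1, Python 3.11.15, numpy 2.4.6, pandas 2.3.3 and matplotlib 3.10.9.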

Additional observations from a re-analysis of the deposited data

How the results depend on the processing

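The count of 2733 calls against control was 443 to 4900 when 1 library was left out, 4998 with library totals, 6909 with no scaling, 1271 in a fit of the 6 libraries alone, 8818 with array weights, 1144 without control 2 and intravenous 1, which were highest in retina or in lens and muscle markers, and 1538 with the length trend removed. It stayed within 1.5 times under the other 10 alternatives, limma voom (2491) and no filter (2116) among them. Against the DED model the count of 340 was 58 to 1799 with 1 library left out, 725 with library totals, 4725 with no scaling, 190 without trend and robust estimation, 5209 with array weights, 728 with the third eye drop column kept, 2156 without control 1 and intravenous 3, and 110 without control 2 and intravenous 1. Against the eye drop group the count of 0 was 0 to 676 with 1 library left out, 3934, 3891, 4 and 1106 with no scaling, array weights, the third column and without control 1 and intravenous 3. For DED against control the count of 239 was 34 to 1272 with 1 library left out, 135 with no scaling, 122 without trend, 5512 with array weights, 524 with the third column, 463 without control 1 and intravenous 3 and 119 without control 2 and intravenous 1. With no scaling, log2 fold changes turned to -0.66 for Krt5, -0.11 for Calml3 and -0.04 for Krt15, and list medians to -0.18 for inflammatory cytokines, -0.02 for MHC class II, -0.45 for glycolysis, -0.24 for antioxidant genes, -0.48 for keratins, -0.47 for pyroptosis, -0.26 for the proteasome, -0.49 for exosome machinery and -0.14 for lymphocytes. With library totals glycolysis turned to -0.13, keratins to -0.15, pyroptosis to -0.15 and exosome machinery to -0.16. The osmotic stress median turned to 0.05 without control 2 and intravenous 1, pyroptosis to -0.05 with array weights and lymphocytes to -0.01 with no filter. A scaling subtracts 1 value from all genes of a library. For the other changes the cause was not tested. Among 161 named calls, 81 held without each control and intravenous library in turn and 124 with the length trend removed. The replicate numbers were not taken as a pairing of samples. With the replicate block the calls numbered 2717, 371, 0 and 191. Same-numbered intravenous and control libraries correlated at -0.15, -0.07 and -0.18, and differently numbered ones at -0.03 to 0.14. Whether the numbers pair samples cannot be told from these values. The length trend and the omission of DED and eye drop libraries were chosen after seeing the data. Genes of few counts were the most limited by depth.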

Other observations

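Genes next to Gch1 in tetrahydrobiopterin metabolism were looked at after the values of Gch1 were seen. Gchfr, which encodes the regulatory protein of the Gch1 enzyme, had 58.4, 139 and 79.3 normalized counts in control 1, 2 and 3, 54.5, 115 and 84.7 in DED 1, 2 and 3, and 259, 251 and 163 in intravenous 1, 2 and 3. It was higher in the intravenous group than in the controls (log2 fold change 1.34, adjusted p = 0.0172 by limma) and than in the DED model (1.43, adjusted p = 0.0409), with no overlap of values. The call against the DED model was lost without DED 1, DED 3, intravenous 1 or intravenous 2. The later enzymes of the pathway did not pass against control. Pts had a log2 fold change of 0.07 (adjusted p = 0.808) and Spr 0.49 (adjusted p = 0.181). Ass1, an enzyme that makes arginine, was at -0.01 (adjusted p = 0.984).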
